A study of Mus musculus with 2 samples.

Results

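The genes described here are 10 genes that build and remodel the neuronal cytoskeleton: the 4 stathmins (Stmn1, Stmn2, Stmn3 and Stmn4), 3 neuronal microtubule-associated proteins, or MAPs (Map1b, Map2 and Mapt), and 3 genes of the growth cone (Gap43, Dpysl3 and Crmp1). They were picked by gene name, by matching the stable gene identifier of each row to GENCODE mouse M21, and all 10 of the 10 were found among 43346 Ensembl genes. The libraries were 2 total RNA-seq preparations of forebrain from B6NCrl mouse embryos at embryonic day 11.5, and the labels name no genetic change or treatment. Replicate 1 pooled 109 embryos and replicate 2 pooled 88, with males and females mixed in each, and each library was made from 10 ng of RNA above 200 nucleotides with spike-in RNAs added. The labels call them biological replicates and give both the same donor label. There was 1 group and no second condition, so levels, their order and their spread between the libraries are given as descriptions, without p-values.

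Stathmins are small phosphoproteins that bind tubulin dimers and favour microtubule shrinkage, and phosphorylation releases the tubulin. MAPs do the opposite by binding along the microtubule wall and stabilising it, and their splice forms change as neurons mature. The growth cone is the motile tip of an axon, where Gap43 sits under the membrane and the collapsin response mediator proteins (CRMPs), of which Crmp1 and Dpysl3 encode members, link guidance signals to tubulin. Stmn1 is also abundant in dividing cells, whereas Stmn2 and Gap43 are used as markers of young neurons.

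The coding sequences of the stathmins show what separates Stmn1 from its relatives. The first 30 codons of each leading transcript are printed because the cysteine codons, in capitals, lie in the stretch that anchors Stmn2, Stmn3 and Stmn4 to membranes by palmitoylation, and because the first 10 codons of Gap43 hold the cysteines that anchor it in the same way. The letters come from GENCODE M21 transcripts.
Stmn1: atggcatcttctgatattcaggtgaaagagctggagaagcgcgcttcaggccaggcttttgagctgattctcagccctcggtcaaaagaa
Stmn2: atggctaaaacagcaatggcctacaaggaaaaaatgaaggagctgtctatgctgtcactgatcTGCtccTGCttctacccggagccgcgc
Stmn3: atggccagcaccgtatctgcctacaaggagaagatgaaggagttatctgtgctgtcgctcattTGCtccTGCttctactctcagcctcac
Stmn4: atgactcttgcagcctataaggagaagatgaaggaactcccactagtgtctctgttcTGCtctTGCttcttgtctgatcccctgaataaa
Gap43: atgctgTGCTGTatgagaagaaccaaacag
In Stmn2 and Stmn3 the cysteines were codons 22 and 24, and in Stmn4 they were codons 20 and 22, counted from the start codon. Stmn1, known as a cytosolic protein, had 0 cysteine codons in its 149. Gap43 had cysteines at codons 3 and 4. Over aligned coding bases, the stathmins were 68.0% (Stmn1 with Stmn3) to 73.6% (Stmn2 with Stmn3) identical to each other.

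The tissue label was checked against marker genes. All 5 forebrain markers and all 9 markers of postmitotic neurons reached 1 TPM in both libraries, as did all 6 progenitor markers, whereas 0 of 5 hindbrain and spinal cord markers did and their summed level was 1.14 and 0.89 TPM. TPM is a transcript level scaled by length and by the total of the library. The peripheral neuron and neural crest markers, whose cells also express several of the 10 genes, summed to 4.99 and 3.35 TPM over 7 genes, with 1 detected in both libraries (Pou4f1) and Prph, a peripheral neuron intermediate filament, at 0.16 and 0.27 TPM. Red cell markers summed to 10889.57 and 11596.88 TPM and mesenchyme markers to 553.55 and 571.23 TPM, so RNA of blood and connective tissue was present too. In such bulk tissue, fewer cells of a type and less RNA per cell cannot be told apart.

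All 10 genes were detected, at 1 TPM or more in both libraries, as were 58.6% of 21474 protein-coding genes. Of the 10, 8 lay in the top 10% of protein-coding genes by mean TPM, a class that holds 10.0% of genes by definition, and Mapt and Stmn4 did not. Their median level on the log2(TPM + 1) scale was 7.26, against 2.30 over all protein-coding genes. They summed to 3717.57 ± 23.5 TPM (SD, n = 2), or 0.426% ± 0.00365 of the TPM of mouse genes.

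**Figure D1:**
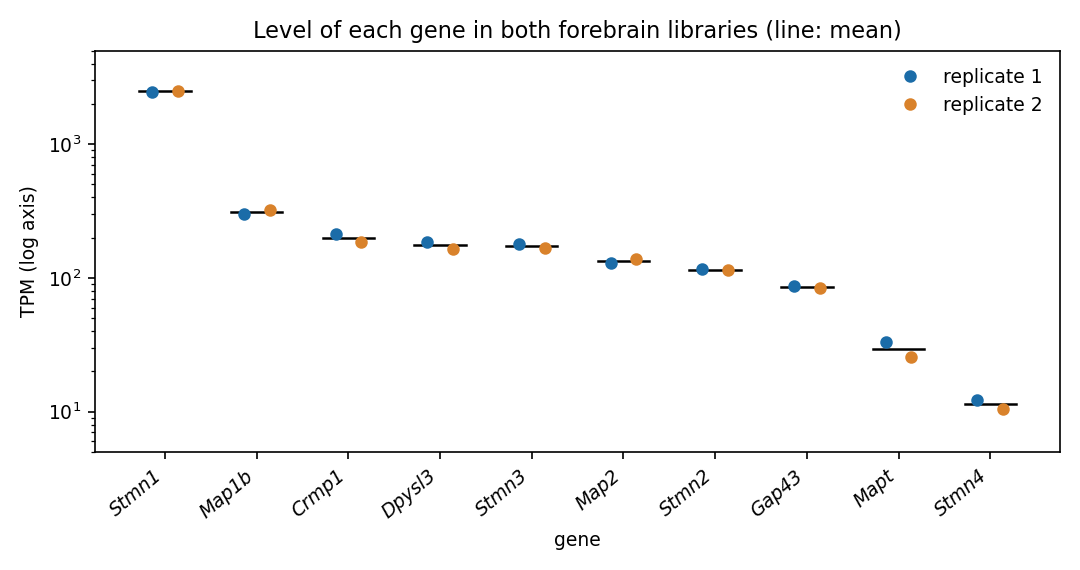
TPM (log axis) of each gene in replicate 1 and replicate 2, with a line at the mean. Stmn1 stands above all others in both libraries, Mapt and Stmn4 are lowest, and the points of Crmp1, Dpysl3 and Stmn3 lie close together.

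The gene coordinates that follow are of GRCm38, and the 10 genes lie on 10 chromosomes. Stmn1 (ENSMUSG00000028832.7, chr4:134468320-134473843, plus strand), the founding stathmin, was by far the highest of the 10. It measured 2475.24 TPM in replicate 1 and 2488.59 in replicate 2, a mean of 2481.91 ± 9.44 TPM (SD, n = 2), and ranked 18 among 21474 protein-coding genes. The next gene in order, Map1b, was 7.97 ± 0.266 times lower, and the 2 sets of values did not overlap. Stmn1 made up 89.2% ± 0.381 of the summed stathmin level and 66.8% ± 0.677 of the level of all 10 genes.

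The neuronal stathmins were each far below Stmn1. Stmn3 (SCLIP; ENSMUSG00000027581.12, chr2:181306459-181314500, minus strand) measured 180.06 and 167.26 TPM, a mean of 173.66 ± 9.05. Stmn2 (SCG10; ENSMUSG00000027500.10, chr3:8509360-8561606, plus strand), a regulator of axon growth, measured 115.87 and 115.2 TPM, a mean of 115.535 ± 0.474. Stmn3 exceeded Stmn2 in both libraries, 1.55 times in replicate 1 and 1.45 times in replicate 2, and their values did not overlap. Stmn4 (RB3; ENSMUSG00000022044.10, chr14:66344296-66361680, plus strand) measured 12.17 and 10.45 TPM, a mean of 11.31 ± 1.22, which placed it at rank 8258 and last of the 10. Stmn1 was 14.3 ± 0.800 times Stmn3 and 21.5 ± 0.170 times Stmn2. Against Stmn4 it was 203.4 times higher in replicate 1 and 238.1 times in replicate 2. Of the summed stathmin level, Stmn3 held 6.24%, Stmn2 4.15% and Stmn4 0.406%.

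Among the MAPs, Map1b (ENSMUSG00000052727.5, chr13:99421446-99516540, minus strand), which appears early in axon growth, came first. It measured 303.26 and 319.63 TPM, a mean of 311.445 ± 11.6, and ranked 395. Map2 (ENSMUSG00000015222.13, chr1:66175273-66442583, plus strand), the dendritic MAP, measured 129.38 and 139.55 TPM, a mean of 134.465 ± 7.19. Mapt (ENSMUSG00000018411.13, chr11:104231390-104332090, plus strand), which encodes the axonal MAP tau, measured 33.45 and 25.6 TPM, a mean of 29.525 ± 5.55. The 3 genes kept this order in both libraries without overlap, with Map1b 2.32 ± 0.0378 times Map2 and Map2 4.66 ± 1.12 times Mapt. Mapt had the widest relative spread of the 10, at 18.8% of its mean.

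Among the growth cone genes, Crmp1 (ENSMUSG00000029121.11, chr5:37241940-37292133, plus strand) measured 211.28 and 185.72 TPM, a mean of 198.5 ± 18.1. Dpysl3 (CRMP4; ENSMUSG00000024501.15, chr18:43320984-43438286, minus strand) measured 186.05 and 164.8 TPM, a mean of 175.425 ± 15.0. Gap43 (ENSMUSG00000047261.9, chr16:42248442-42340651, minus strand), a membrane phosphoprotein of the growth cone, measured 87.45 and 84.13 TPM, a mean of 85.79 ± 2.35. Both CRMP genes were above Gap43 in each library, Crmp1 by 2.31 ± 0.147 times and Dpysl3 by 2.04 ± 0.119 times. Crmp1 was 1.13 ± 0.00613 times Dpysl3 and the higher of the pair in both libraries, although their ranges touch: Crmp1 in replicate 2 lies just under Dpysl3 in replicate 1.

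Ordered by mean TPM, the genes ran Stmn1, Map1b, Crmp1, Dpysl3, Stmn3, Map2, Stmn2, Gap43, Mapt, Stmn4. Of the 9 neighbouring pairs, 2 had overlapping values. Besides Crmp1 with Dpysl3, these were Dpysl3 with Stmn3, which changed places: Dpysl3 was higher in replicate 1 and Stmn3 in replicate 2. All other neighbours were separated in both libraries.

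The order by reads differed from the order per length. The only Map1b transcript model spans 11852 nucleotides, while the leading Stmn1 model, Stmn1-201, spans 1060. The part after the stop codon made up 4360 nucleotides of the Map1b model and 3574 of Map2-201, but 44 of the leading Dpysl3 model, Dpysl3-201. By expected counts, the estimated number of reads per gene with no length scaling, Map1b held 44.4% ± 1.38 of the reads of the 10 genes and Stmn1 28.8% ± 0.0616. By TPM the same shares were 8.38% ± 0.364 and 66.8%. Map1b ranked 12 among protein-coding genes by counts and 395 by TPM.

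**Figure D2:**
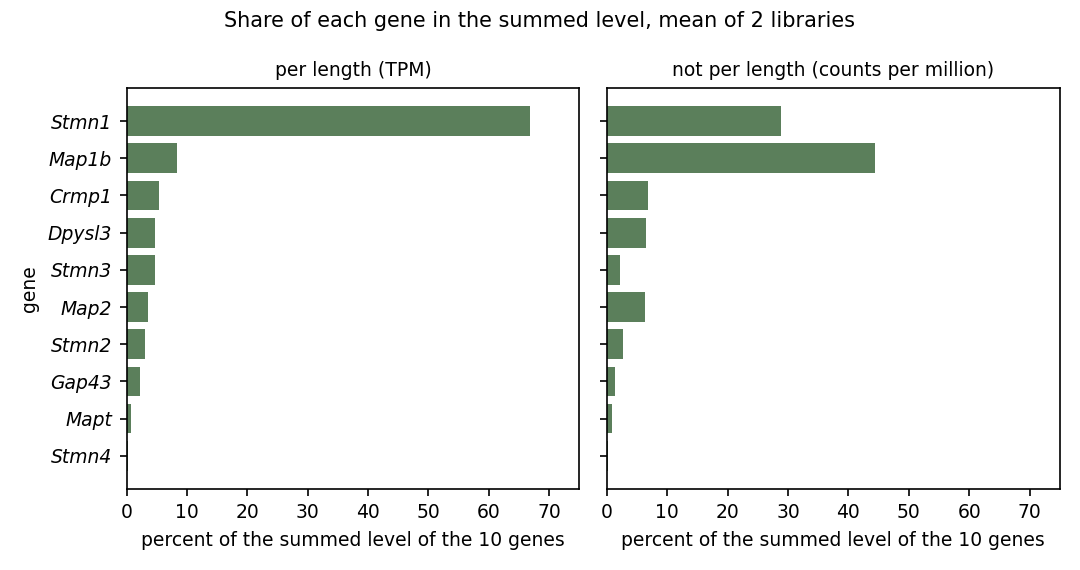
Share of each gene in the summed level of the 10, in percent, by TPM (left) and by counts scaled to the library (right), as the mean of both libraries. Stmn1 leads per length with 66.8%, and Map1b leads by counts with 44.4%.

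For reference to neuronal maturity, the young neuron markers Tubb3 and Dcx measured 472.76 ± 47.5 and 63.24 ± 0.707 TPM. Stmn2 was 0.246 ± 0.0237 times Tubb3 and 1.83 ± 0.0129 times Dcx. The later neuronal markers Rbfox3 and Snap25 were at 6.14 ± 1.05 and 14.5 ± 0.424 TPM, both below every gene of the 10 except Stmn4, which lay between them. Stmn1 was 5.28 ± 0.550 times Tubb3 and 2.45 ± 0.000221 times the progenitor marker Vim.

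The libraries were then compared gene by gene, from expected counts scaled by library size with the TMM method. After rounding of each gene's expected count, the libraries held 23165223 and 33597022 counts on Ensembl genes in replicates 1 and 2. With a gene counted as different where one library was at least 25% above the other, 0 of the 10 genes differed, against 26.0% of 18297 genes with 10 or more counts and 4.29% of 10570 genes with at least as many counts as Stmn4. With 1 library on each side no test of a condition was possible, and the intervals that follow cover counting error only.

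Crmp1 had 9164 and 11635 expected counts in the shallower and the deeper library, a fold of 1.14 in favour of replicate 1 (95% interval 1.11 to 1.17). Dpysl3 had 8767 and 11227 counts, a fold of 1.13 (1.10 to 1.16). These 2 CRMP genes thus leaned the same way by nearly the same amount, with log2 ratios of 0.19 and 0.18. The other CRMP genes did not share the lean: Dpysl2 was at -0.01, Dpysl4 at 0.02 and Dpysl5 at 0.03. Mapt had 1224 and 1542 counts and a fold of 1.15 (1.06 to 1.24), while its TPM ratio was 1.31. Its deposited effective length was 2393.45 nucleotides in replicate 1 and 2723.81 in replicate 2, so the count and the TPM give different ratios. Stmn3, with 2855 and 3835 counts, had a fold of 1.08 (1.03 to 1.13).

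Map1b and Map2 leaned towards replicate 2. Map1b, with 54495 and 83060 counts, had a log2 ratio of replicate 1 to replicate 2 of -0.07 (fold interval 0.939 to 0.960). Map2, with 7583 and 11803 counts, had a fold of 0.930 (0.903 to 0.957). For the other 4 genes the interval included 1. Stmn1 was at 0.995 (0.982 to 1.01) on 36207.5 and 52650.32 counts, Stmn2 at 1.03 (0.980 to 1.07) on 3364 and 4750, and Gap43 at 1.03 (0.970 to 1.10) on 1748 and 2451. Stmn4, with 216 and 273 counts, had a fold of 1.15 (0.954 to 1.37), so at its depth a lean of the size seen in Mapt was not detectable. The sign of Stmn2 turned, from 0.04 to -0.01 on the log2 scale, when spike-in counts set the scale.

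In all, 6 of the 10 intervals excluded 1, as did 43.3% of those of the 10570 genes with at least as many counts as Stmn4. Replicate 1 was higher for 7 genes and replicate 2 for 3, and over protein-coding genes 51.8% were higher in replicate 1. The postmitotic neuron markers summed to 845.2 and 759.2 TPM in replicates 1 and 2, of which Tubb3 alone held 506.33 and 439.19. Their median log2 ratio was 0.11, against 0.08 for the 10 genes and 0.02 for progenitor markers. Lists of other cell types also lay off 0, with endothelium markers at 0.14 and erythroid markers at -0.08. The part of neuron content in the differences was not tested.

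**Figure D3:**
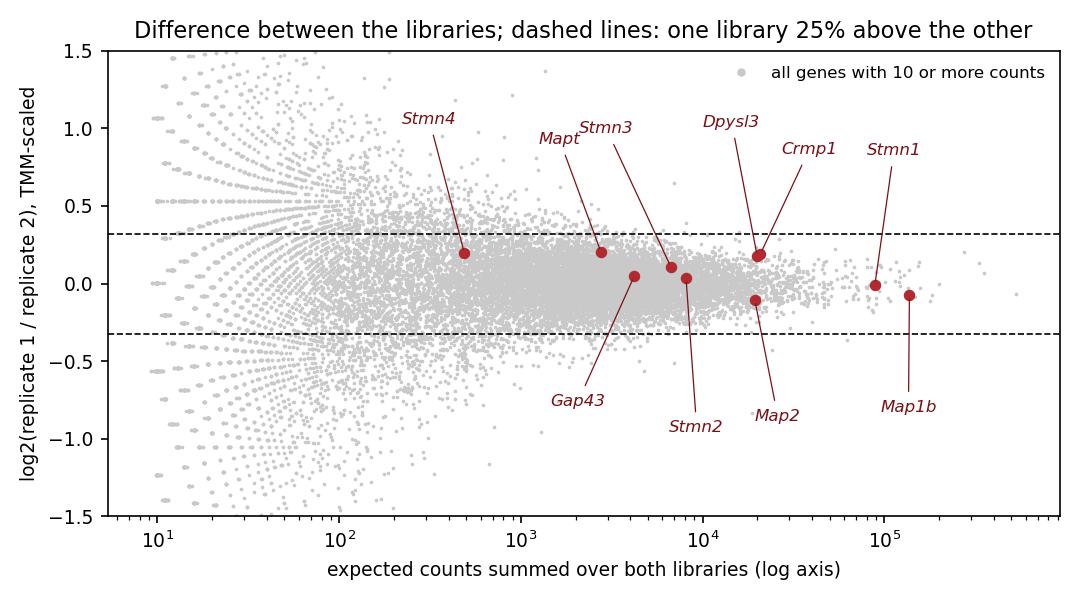
Log2 ratio of replicate 1 to replicate 2 after TMM scaling against expected counts summed over both libraries (log axis), for all genes with 10 or more counts (grey) and the 10 genes (red). Dashed lines mark where one library is 25% above the other, all 10 genes lie between them, and 514 grey genes beyond 1.5 on the log2 axis are not drawn.

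Transcript models were followed through their share of the summed transcript TPM of their gene. The 10 genes had 66 models, of which 55 had a TPM above 0. One model held at least 50% of its gene in 8 of the 10, as it did in 82.3% of detected protein-coding genes, and the exceptions were Map2 and Mapt. Stmn3 and Map1b had 1 model each. Stmn1-201 held 98.7% ± 0.0513 of Stmn1, Gap43-201 held 98.7% ± 1.10 of Gap43 and Stmn2-201 held 90.8% ± 1.21 of Stmn2. Stmn4-201 held 75.3% ± 0.926, while the next model differed between libraries: Stmn4-204 had 17.4% in replicate 1 and 0% in replicate 2, and Stmn4-203 had 0% and 15.4%. The latter values rest on about 40 counts each, 40.81 and 41.95.

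**Figure D4:**
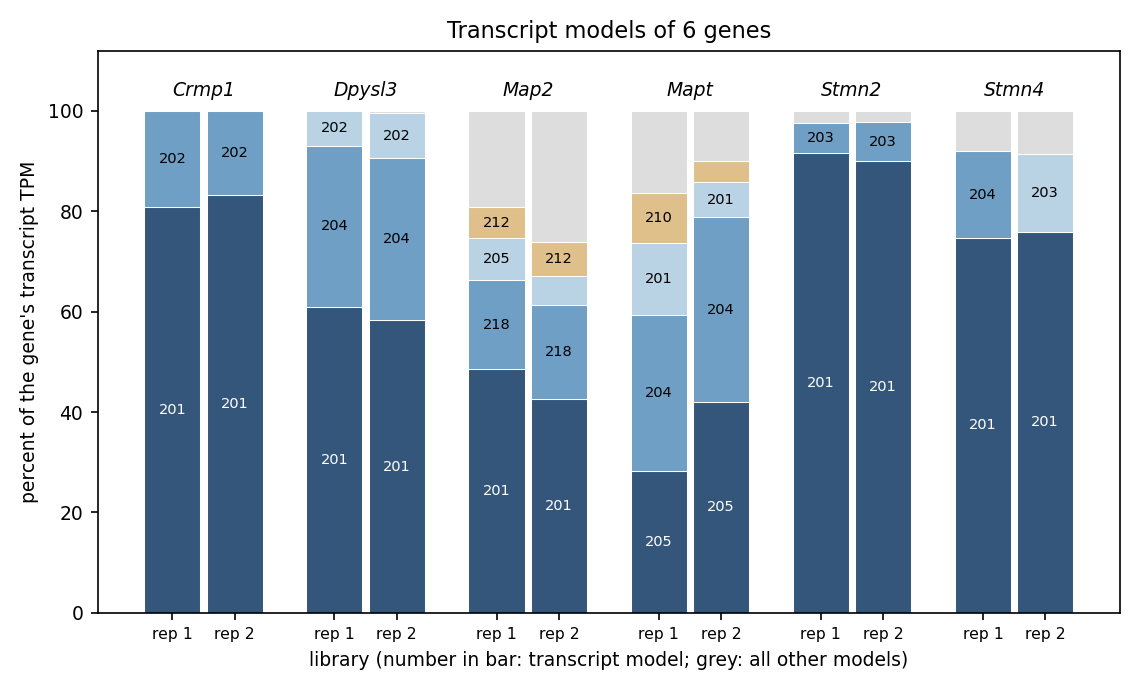
Share of each transcript model in the TPM of its gene, in percent, for 6 genes in replicate 1 and replicate 2 (numbers in bars name the model, grey pools the rest). Crmp1 and Dpysl3 look alike in both libraries, whereas the order of Mapt-205 and Mapt-204 changes.

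Crmp1 and Dpysl3 each use alternative first coding exons, which give a short and a long amino-terminal form of the protein. The start of each Crmp1 coding sequence is printed because these first exons are what tells the forms apart. Crmp1 short is the whole first coding exon of Crmp1-201, chr5:37246058-37246096 on the plus strand of GRCm38, and Crmp1 long is the first 60 coding bases of Crmp1-202, chr5:37242145-37242204, same strand. Both are exonic coding sequence from GENCODE M21, and the capitals mark the start codon.
Crmp1 short: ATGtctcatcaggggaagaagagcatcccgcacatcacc
Crmp1 long: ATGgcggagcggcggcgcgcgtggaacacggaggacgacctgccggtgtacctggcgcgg
The short form, of 572 codons, measured 170.79 and 154.53 TPM, which is 80.8% and 83.2% of Crmp1. The long form, of 686 codons with a first coding exon of 381 nucleotides, measured 40.48 and 31.19 TPM, or 19.2% and 16.8%. The short form thus outweighed the long one in both libraries.

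Dpysl3 had the same arrangement with another balance. Dpysl3-201, with a first coding exon of 39 nucleotides, held 61.0% and 58.3%, and Dpysl3-204, with one of 378 nucleotides, held 32.1% and 32.3%. Dpysl3-202, with another first coding exon, of 33 nucleotides, held 6.91% and 8.95%. The long form of Dpysl3 was a larger share of its gene than that of Crmp1 in each library. By counts, with no length scaling, the order turned: Dpysl3-204, the longest of the models at 5484 nucleotides, held 56.0% and 56.5%, and Dpysl3-201 a mean of 38.8%. Dpysl3-201 spans 2106 nucleotides, whereas the 2 Crmp1 models are closer in length, at 2909 and 3049. The part of annotated model length in the balance of either gene was not tested. Over 1710 aligned bases the coding sequences of Crmp1 and Dpysl3 were 71.2% identical.

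The 2 Crmp1 starts also differ in the DNA before them. The 250 bases before each start in RefSeq (GRCm38.p6) were compared because both forms were measured and RefSeq lists both starts, with the GC box motif (GGGCGG, or CCGCCC on the other strand, overlaps counted) in capitals. The RefSeq long start is base 37242058 of chromosome 5 and the short start is base 37245764, both on the plus strand, and the windows before them are chr5:37241808-37242057 and chr5:37245514-37245763. Because a further GENCODE M21 model, without a value here, starts inside the long window, only its first 132 bases, chr5:37241808-37241939, are printed.
Crmp1 long start: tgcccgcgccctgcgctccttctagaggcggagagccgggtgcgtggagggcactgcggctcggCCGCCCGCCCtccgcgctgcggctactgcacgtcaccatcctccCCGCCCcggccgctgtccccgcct
Crmp1 short start: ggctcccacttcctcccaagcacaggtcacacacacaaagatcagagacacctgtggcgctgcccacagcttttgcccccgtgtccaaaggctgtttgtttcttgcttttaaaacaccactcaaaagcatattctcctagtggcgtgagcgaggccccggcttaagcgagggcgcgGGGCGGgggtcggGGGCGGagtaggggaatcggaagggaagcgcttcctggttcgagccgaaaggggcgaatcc
The whole window before the long start had 75.6% GC, 30 CpG and 5 GC boxes, of which 3 lie in the printed part, and that before the short start had 59.6% GC, 16 CpG and 2 GC boxes. The TATA box (TATAAA or TTTATA) was in neither. Among 32851 RefSeq promoters, cut to the same 250 bases, 32.7% held a GC box and 12.4% a TATA box. The more CpG-rich start was thus that of the less abundant form. A match says only that these letters are present.

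Map2 splicing was read from a coding exon of 3741 nucleotides, chr1:66412407-66416147 on the plus strand, which distinguishes the large MAP2A and MAP2B proteins from the small MAP2C and MAP2D. Models without it held 60.1% and 59.7% of Map2, and models with any coding bases in it 7.81% and 5.88%. Of the latter, only Map2-204, at 5.04% and 5.35%, is longer than the exon. For the other models (32.1% and 34.4%) the coding exons did not extend to both sides of the exon, so they could not tell. Of the models that could tell, 88.5% and 91.0% of the TPM was without the exon. The small forms, of which MAP2C is known from developing brain, were thus most of the Map2 that could be assigned. Map2-201, which lacks the exon, held 48.5% and 42.7% of the gene. The short model Map2-218, of 546 nucleotides, held 17.8% and 18.7%. By counts, Map2-218 held 2.07% and 2.19%, Map2-201 a mean of 60.7% and all models without the exon a mean of 80.1%.

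A second Map2 exon, of 93 nucleotides at chr1:66431527-66431619, adds a microtubule-binding repeat. It is printed whole because its use separates MAP2D from MAP2C. It is a coding exon on the plus strand, from GENCODE M21, in lower case throughout.
Map2: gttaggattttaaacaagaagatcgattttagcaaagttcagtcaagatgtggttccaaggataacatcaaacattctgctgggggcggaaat
Map2 models with the repeat exon held 1.77% and 2.31% of the gene and models without it 65.0% and 63.7%. The rest, 33.3% and 34.0%, could not tell. The share with the exon came from Map2-221 (1.57% and 0.143%) and Map2-207 (0.201% and 2.17%), so a different model led in each library. Map2-221 also has coding bases in the 3741-nucleotide exon, so its share is not one of MAP2D. Models without the repeat exon thus outweighed those with it in both libraries.

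Mapt models were told apart by other exons. The first of the N-terminal exons, of 87 nucleotides at chr11:104287123-104287209, was absent from models with 63.6% and 78.8% of the gene and present in models with 17.3% and 12.0%. The second, also 87 nucleotides, at chr11:104289908-104289994, was absent from models with 63.6% and 80.0%. Fetal tau is known to lack both exons, and models without them led in each library. The 759-nucleotide exon of big tau, the long form of peripheral neurons, was in models with 2.93% and 3.67%. These shares rest on few counts, 32.36 and 38.04 for Mapt-203 and 0 and 6.57 for Mapt-202. Mapt-205 took 28.2% in replicate 1 and 42.1% in replicate 2, and Mapt-204 took 31.1% and 36.7%. Mapt-204 led in replicate 1 and Mapt-205 in replicate 2, so neither can be called the main form from TPM, whereas by counts Mapt-204 held 68.2%.

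Genes that work with these 10 were taken from lists of 63 genes in all, of which 62 were detected in both libraries and 4 differed by 25% or more, all higher in replicate 1. Over all genes, 58.6% of protein-coding genes were detected, 26.0% of genes with 10 or more counts differed by this much and 4.29% of those with at least as many counts as Stmn4, and protein-coding genes that differed went both ways (1513 higher in replicate 1 and 1297 in replicate 2). In the CRMP family, 3 of 3 were detected, with Dpysl2 (CRMP2) at 496.17 ± 2.87 TPM above both Crmp1 and Dpysl3, Dpysl4 at 92.15 ± 5.47 and Dpysl5 at 73.85 ± 2.62. Dpysl2 was thus the highest CRMP gene of the 5. Among genes of the growth cone membrane and adhesion, 8 of 8 were detected, and Marcksl1 and Marcks, relatives of Gap43 in binding membrane and calmodulin, measured 1442.24 ± 109 and 255.14 ± 9.76 TPM. The lowest was Gprin1, at 10.7 and 6.46 TPM. Gprin1 and Basp1, a Gap43-like protein (143.53 and 109.63 TPM), were 2 of the 4 that differed.

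Among other structural MAPs, 11 of 11 were detected. Their median log2(TPM + 1) was 3.57, the lowest of the lists but above the 2.30 of all protein-coding genes, which 9 of the 11 exceeded. Map7d1 and Map4 were highest, at 65.01 ± 1.63 and 45.23 ± 0.311 TPM, and Map6d1 lowest at 1.33 ± 0.368. Each of these was below Map1b and Map2 per length, but Map7d1 and Map4 were above Mapt in both libraries. Of the kinases and activators that act on MAPs or stathmins, 13 of 14 were detected, led by Gsk3b, a tau kinase, at 85.43 ± 2.31 TPM and Pak1 at 54.635 ± 4.22. Cdk5r2, an activator of Cdk5, missed the threshold at 1.11 and 0.95 TPM. Map6d1 and Mark1, a kinase that phosphorylates MAPs (5.83 and 4.34 TPM), were the other pair that differed between libraries.

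Microtubule plus-end proteins were all detected (8 of 8), with Mapre1 (EB1) at 259.57 ± 24.0 TPM, Ckap5, a microtubule polymerase, at 111.335 ± 7.88 and Clip2 lowest at 5.105 ± 0.431. The severing enzymes were detected in 6 of 6, with Fignl1 at 74.025 ± 8.04 TPM, Katna1 at 57.235 ± 0.898 and Fign lowest at 11.805 ± 0.997. Of these 14 genes, 0 differed by 25% between libraries, beside the 26.0% and 4.29% given above.

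**Figure D5:**
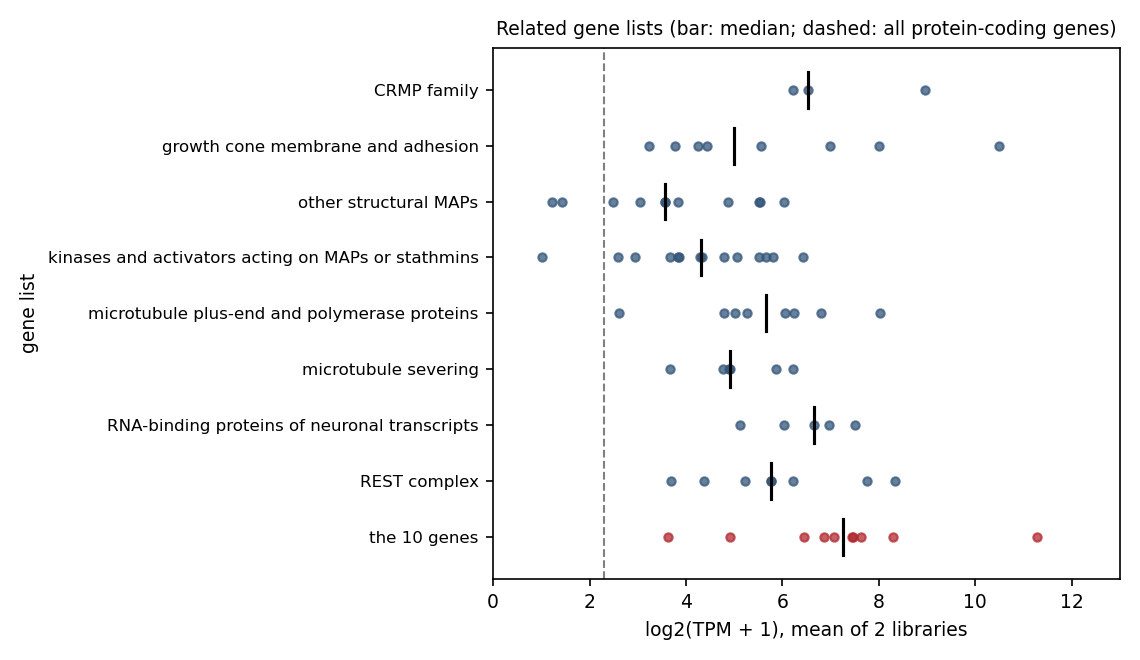
Level of each gene on the log2(TPM + 1) scale, mean of both libraries, by list, with a bar at the list median and a dashed line at the median of all protein-coding genes (2.30). The 10 genes have a median of 7.26, and the other structural MAPs have the lowest median of the lists, 3.57.

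Some of the 10 genes overlap other annotated entries. Map2 was the only one of the 10 whose exons overlap an exon on the opposite strand (Gm10558), and the handling of strand is not given in the sources used here. Stmn1 shares exon sequence with the same-strand entry Gm23634 and was the only one whose expected counts were not whole numbers (within 0.005), so 9 of 10 had whole counts, against 70.3% of genes with 10 or more. The deposited TPM lay inside the deposited credibility interval for 6 of the 10 in replicate 1 and for 7 in replicate 2. Where it lay outside, in Stmn1, Map1b and Crmp1 in both libraries and Stmn3 in replicate 1, it was above the upper bound. The deposited posterior mean differed from TPM by -3.08% in Stmn1, -3.10% in Map1b and Stmn3 and -3.13% in Crmp1. The same share over all genes was not counted, so these numbers cannot be read as particular to the 10.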

How the data were processed

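The authors deposited, per the file headers, expected counts and TPM per gene and per transcript for both libraries, with a posterior mean TPM and credibility bounds whose level is not given. Per the labels, extraction used mirVana and libraries followed a SMART-seq protocol. The deposited text notes name mm10 and GENCODE M4, with aligner, quantifier and strand setting not given in the sources used here. TPM include spike-ins, which held 13.0% and 12.7% of TPM and 5.66% and 5.49% of counts. The 97 spike-in and 26248 numeric entries stayed out of library sizes, which were 23165223 and 33597022 rounded counts on Ensembl genes.

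Gene names came from GENCODE M21 by stable identifier (42462 of 43346 matched, 98.0%). Expected counts were rounded for scaling with edgeR 4.0.16 (TMM factors 1.00 and 0.999) in R 4.3.3, with DESeq2 1.42.0 size factors as an alternative, adding 0.5 counts before log2 ratios. Fold intervals are exact conditional binomial intervals at 95%. They span counting error alone and take each read as independent. No molecular identifiers are mentioned, so reads copied from the same molecule could not be told apart, and the intervals may be too narrow. Sequences were read with Python 3.11.15 and aligned with Biopython 1.88. The scaling step was tested on simulated counts that held counting error only, so that test says nothing on the spread between real libraries. Promoters came from RefSeq, which matched 4 of the 10 genes.

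The 10 genes and all lists were chosen with earlier results of these data known. The text names all 10 genes, their transcripts at a mean share of 20% or more or with a described exon, the 2 highest and the lowest gene of each list, and list genes that differed by 25% or more. The last of these, the minor models of Stmn4, Map2-218 and the marker genes given were chosen after their values were seen. A result on 1 Mapt exon is not reported here.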

Additional observations from a re-analysis of the deposited data

How the results depend on the processing

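No paired analysis was possible because there was 1 group. The number of the 10 genes that differed by 25% or more stayed at 0 under DESeq2 size factors, total count and spike-in scaling. The other count filters could not change it, because all 10 genes have more than 100 counts. A stricter fold of 1.5 could not raise it either. Summed TPM was 3612.55 by the deposited posterior mean and 4264.81 without spike-ins, against 3717.57. Counts put Map1b first (rank 1, not 2) and Stmn1 at 85.3% of the stathmins, not 89.2%. Over all genes, 4750 passed this threshold, 9758 without a count filter, 1519 at 100 or more counts and 2486 at 1.5-fold. The posterior mean raised Stmn4 by 9.86% and Mapt by 3.37%. Using posterior means and transcripts of 1000 nucleotides or more for isoforms was chosen after seeing the data, as was ordering by posterior mean, and gave 8 and 9 genes with a leading model, and 10 by counts. Of 120 single-value alternatives, 88 were scored as unchanged and 32 as moved. Levels and shares were judged by 1 SD, and log2 ratios by their counting interval. Levels and shares from a single library could not move, because with 2 libraries each lies within 1 SD of the mean. That 0 were scored as reversed shows nothing, because even the sign change of Stmn2 was scored as unchanged. Of 30 combinations of gene and scaling, 1 changed sign (Stmn2, spike-ins). With 2 libraries, each SD rests on a single difference.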

Other observations

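Lists of regulators that are known to act on neuronal transcripts were also measured. In the RNA-binding list, 5 of 5 were detected: Tardbp (TDP-43) at 177.06 and 187.06 TPM, Elavl1 at 120.71 and 126.3, and Elavl3 lowest at 35.99 and 31.49. Of these, 0 differed by 25% between libraries, beside 26.0% of genes with 10 or more counts and 4.29% of those with at least as many as Stmn4. Tardbp was higher than Stmn2 in both libraries, and a link between these genes was not tested.

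The REST complex represses neuronal genes in non-neuronal cells and progenitors, and 8 of 8 genes of its list were detected. Hdac2 measured 322.98 and 318.5 TPM, Hdac1 222.66 and 206.96, and Rcor1 was lowest at 12.66 and 11.2. Rest itself measured 19.56 and 19.97 TPM, named after its value was seen. It was below each of the 10 genes except Stmn4 in both libraries.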
